A study of Mus musculus with 37 samples.

Results

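The expression of 9 genes that encode factors through which astrocytes organize synapses was examined: Sparc, Sparcl1, Gpc4, Gpc5, Gpc6, Chrdl1, Thbs1, Thbs2 and Thbs4. They were listed by symbol, with earlier results of these data known, and all 9 were found among the 21975 genes of the count tables. RNA-seq was performed on astrocytes isolated from the hippocampus of mice at 4 months after controlled cortical impact (CCI), a focal contusion made with a piston over the exposed right parietal cortex, or after sham surgery. Injured mice were divided by EEG and video into those with post-traumatic epilepsy (PTE+, at least 2 epileptic episodes recorded) and those without (PTE-), while sham mice received the craniectomy and the electrodes but no impact. The contralateral hippocampus was sequenced in 5 PTE+, 10 PTE- and 5 sham mice, and the ipsilateral hippocampus, on the injured side, in 4 PTE+, 8 PTE- and 5 sham mice, with both hemispheres available for 17 animals.

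All mice were wild type, adult and male, given as CD1 in the study's methods and as CD31 in the sample labels. Each library came from 1 hippocampus of 1 mouse, and the cells were bound with magnetic beads against ACSA-2, a surface antigen of astrocytes, after papain dissociation. The 10 astrocyte markers examined (Aldh1l1, Slc1a2, Slc1a3, Aqp4, Gja1, Gfap, S100b, Atp1b2, Aldoc and Glul) had more than 3 counts in all 37 libraries, and their summed level had a median of 17003 TPM (transcript abundance scaled to transcript length and library size), against 1009 TPM for 10 endothelial, 201 TPM for 10 neuronal and 376 TPM for 10 microglial and macrophage markers. The median sum was 953 TPM for 10 ependymal and choroid plexus, 677 TPM for 10 oligodendrocyte lineage and 363 TPM for 10 mural and fibroblast markers. Library totals ran from 25371887 to 55333329 counts contralaterally and from 36925501 to 59846479 ipsilaterally. The number of genes with any count varied more, from 11756 to 15321 contralaterally and from 9020 to 15545 ipsilaterally. The lowest was the ipsilateral library of PTE- mouse a8_11, in which, of 6953 highly expressed genes, 2234 were at or under 3 counts. Its astrocyte markers summed to 6359 TPM, less than its ependymal and choroid plexus markers (9941 TPM).

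Astrocytes shape synapses partly through proteins that they release. Thrombospondins start the assembly of excitatory synapses that are structurally complete but lack functional AMPA receptors, and the glypicans Gpc4 and Gpc6 help to recruit such receptors. Chordin-like 1, the product of Chrdl1, promotes the later switch to mature GluA2-containing receptors. Hevin (Sparcl1) bridges adhesion proteins of the presynaptic and postsynaptic membranes, while its relative SPARC counters the synapse-forming activity of hevin.

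Promoter sequence was available for 5 of the 9 genes (Sparc, Gpc4, Gpc5, Thbs2 and Thbs4) from RefSeq on mouse build GRCm38.p6. Sparc and Gpc5 are shown as steadily detected members, with more than 3 counts in 37 and 36 of 37 libraries, and Thbs2 and Thbs4 because they were at 3 counts or fewer in 18 and 6 of 37 libraries. Each sequence holds the 250 bases before the RefSeq start, 5′ to 3′ on the gene's strand, and capitals mark matches on either strand to the letters TATAAA for a TATA box, GGGCGG for a GC box, CCAAT for the box named after it and TGACTCA for an AP-1 site. The Sparc sequence lies at chr11:55420081-55420330 on the minus strand, inside the longer gene span of the annotation, that of Gpc5 at chr14:115091965-115092214 on the plus strand, that of Thbs2 at chr17:14694263-14694512 on the minus strand and that of Thbs4 at chr13:92794819-92795068 on the minus strand.
Sparc: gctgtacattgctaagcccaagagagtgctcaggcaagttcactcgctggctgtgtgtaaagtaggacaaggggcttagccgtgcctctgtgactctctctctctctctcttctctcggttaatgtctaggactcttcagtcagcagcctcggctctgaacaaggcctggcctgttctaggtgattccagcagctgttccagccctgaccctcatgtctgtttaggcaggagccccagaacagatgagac
Gpc5: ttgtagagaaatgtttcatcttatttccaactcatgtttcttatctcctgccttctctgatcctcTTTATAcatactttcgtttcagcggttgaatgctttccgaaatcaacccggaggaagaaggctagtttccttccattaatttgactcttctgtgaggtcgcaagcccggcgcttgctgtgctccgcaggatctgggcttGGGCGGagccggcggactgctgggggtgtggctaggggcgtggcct
Thbs2: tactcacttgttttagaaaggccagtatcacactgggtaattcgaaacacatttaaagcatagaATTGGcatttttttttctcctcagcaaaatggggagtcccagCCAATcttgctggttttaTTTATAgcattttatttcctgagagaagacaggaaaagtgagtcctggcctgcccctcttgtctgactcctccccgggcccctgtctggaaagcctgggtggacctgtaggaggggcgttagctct
Thbs4: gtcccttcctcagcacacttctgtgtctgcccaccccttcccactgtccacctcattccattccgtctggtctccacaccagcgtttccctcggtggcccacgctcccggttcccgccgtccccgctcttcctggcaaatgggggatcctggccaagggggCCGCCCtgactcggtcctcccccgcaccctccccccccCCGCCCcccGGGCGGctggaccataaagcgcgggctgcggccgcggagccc

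The Sparc window held none of the 4 motifs. Thbs4 held 3 GC boxes and had a GC content of 70.8%, against a median of 52.4% over 32851 promoters, whereas Thbs2 held 2 CCAAT boxes and 1 TATA box at 46.8% GC. Gpc5 held 1 TATA box and 1 GC box, and Gpc4, not printed, 1 GC box. No matches overlapped each other. Of all promoters, 12.4% held a TATA box, 32.7% a GC box, 33.8% a CCAAT box and 4.46% an AP-1 site, and a match describes letters in the window, not a bound site.

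Levels differed among the 9 genes by far more than they did among the groups of mice. Ordered by the median TPM over 37 libraries, a measure that accounts for transcript length, Sparcl1 led with 3825, followed by Sparc with 1058 and Gpc5 with 208. Gpc6 (27.5), Gpc4 (18.8), Chrdl1 (13.6) and Thbs4 (9.70) formed a lower tier, and Thbs2 (0.06) and Thbs1 (0) were lowest, with more than 3 counts in 19 and 14 of 37 libraries. Sparcl1 exceeded Sparc, and Sparc exceeded Gpc5, in 37 of 37 libraries, while Gpc5 exceeded Gpc6 in 36 libraries and both were listed at 0 in the other. Within the lower tier the order changed from library to library: Gpc6 exceeded Gpc4 in 26 libraries, Gpc4 exceeded Chrdl1 in 25 and Chrdl1 exceeded Thbs4 in 20 of 37. When the 6 groups were ordered by median TPM for each gene, neighbouring groups overlapped for all 9 genes.

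**Figure D1:**
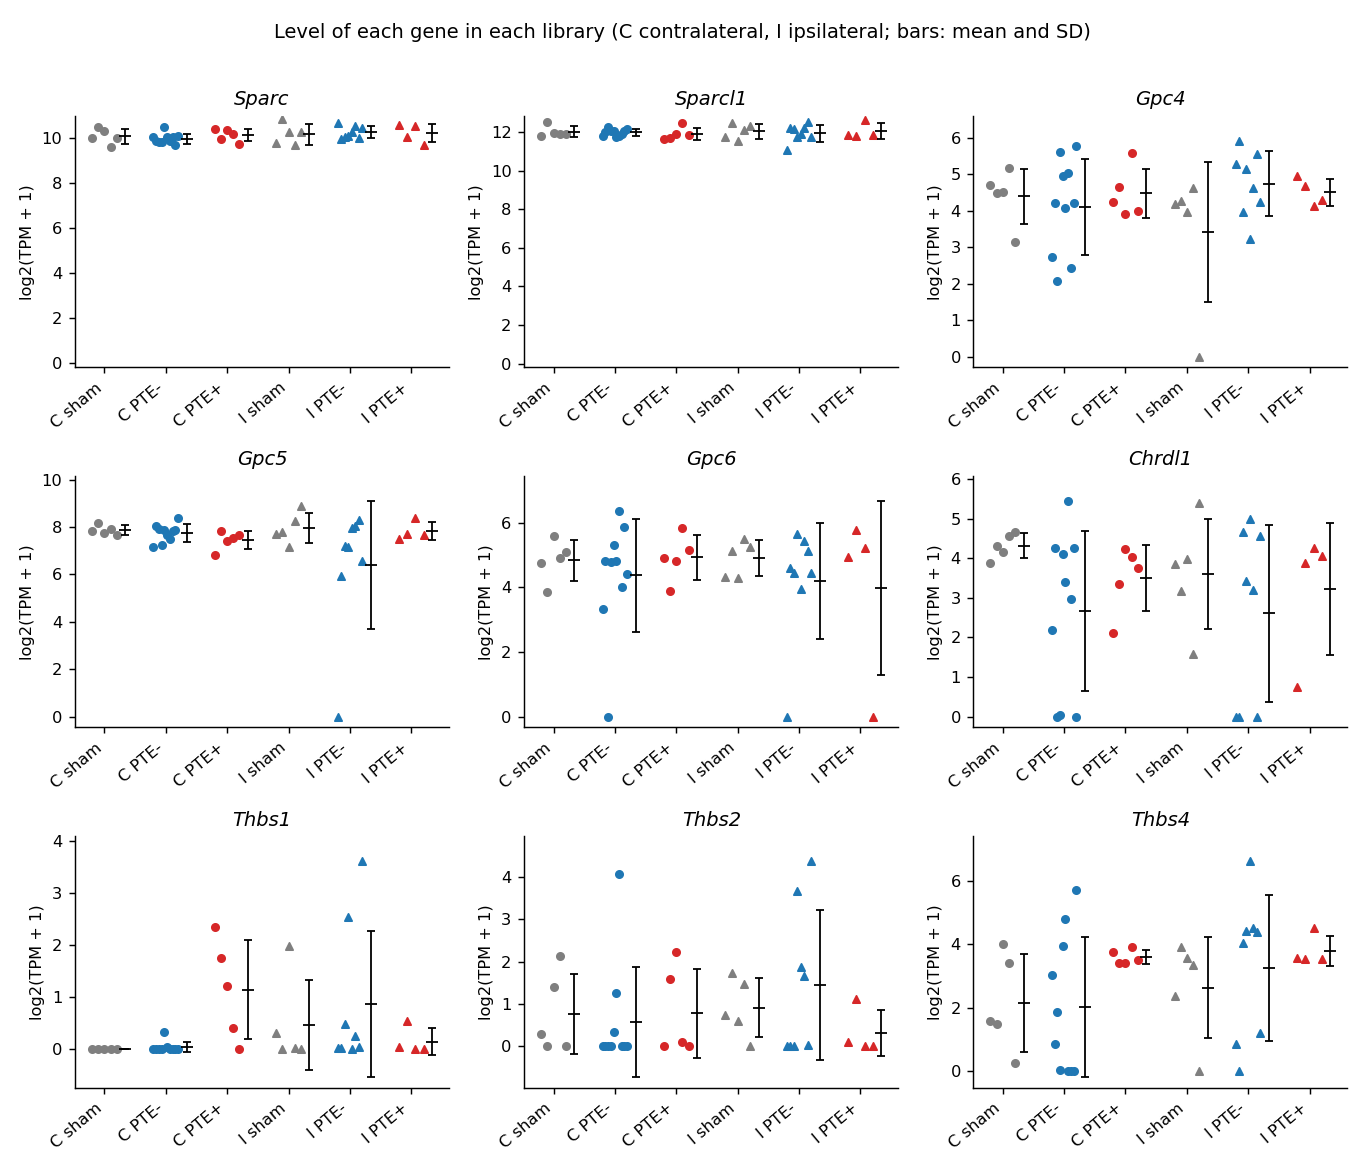
Level of each of the 9 genes on a log2(TPM + 1) scale, 1 panel a gene, with 1 point a library in 6 groups (circles contralateral, triangles ipsilateral) and the mean and SD beside each group. Sparc and Sparcl1 form narrow bands in every group, single libraries of Gpc4, Gpc5, Gpc6 and Chrdl1 fall to 0, and Thbs1 lies at 0 in all 5 contralateral sham libraries.

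No gene of the set passed a threshold of 0.05 on the adjusted p in any of the 11 comparisons (edgeR quasi-likelihood test, Benjamini-Hochberg over all genes tested). DESeq2 and limma called none of them either. The share of all tested genes called was 0.00683% for contralateral PTE+ against PTE- and 0.0% in the 10 other comparisons. At an unadjusted p under 0.05, Thbs1 was counted in 7 comparisons and no other member in any. These comparisons share libraries of a gene at 3 counts or fewer in 23 of 37, so they are not 7 separate results. In the exact permutation tests described below, Thbs1 had a p under 0.05 for contralateral PTE+ against PTE- and against sham. It also did for the hemisphere difference of PTE+ against PTE-, and not in the others. The study's methods additionally asked for a minimum mean TPM and a minimum fold change, and with group means of at most 2.08 TPM Thbs1 would not meet that minimum level. The background at that threshold was 2.21% of genes for contralateral PTE+ against PTE-, 1.23% for contralateral PTE+ against sham and 1.54% for contralateral PTE- against sham. Ipsilaterally it was 1.75% for PTE+ against PTE-, 1.66% for PTE+ against sham and 1.58% for PTE- against sham. Between hemispheres it was 2.93% in PTE+, 4.56% in PTE- and 2.05% in sham mice, and for the difference of the hemispheres 2.94% between PTE+ and PTE- and 2.4% between injured and sham mice. The median log2 fold change of the 9 genes lay between -0.26 and 0.18 over the 11 comparisons, beside -0.05 to 0.07 for all genes tested. Spread between animals was large, with a common biological coefficient of variation of 1.32 contralaterally and 1.402 ipsilaterally.

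**Figure D2:**
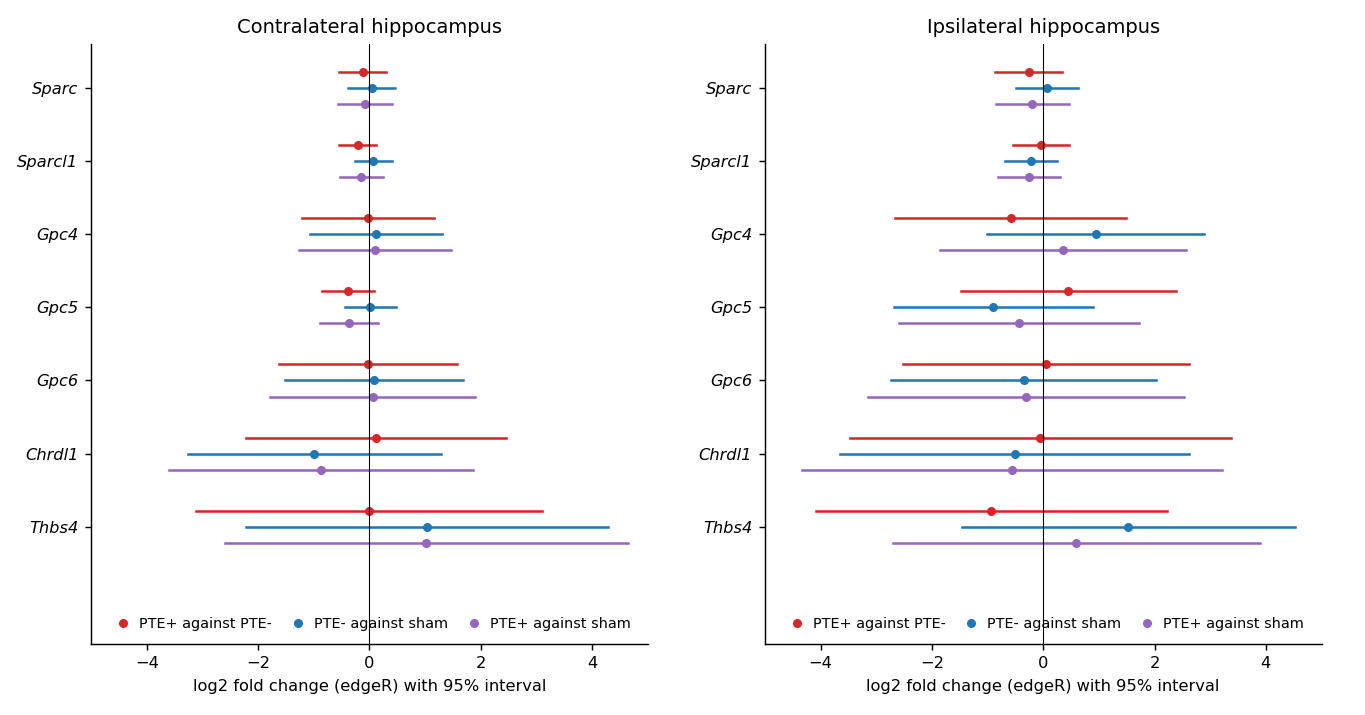
Log2 fold change with its 95% interval (edgeR) for 7 genes in the contralateral (left) and ipsilateral (right) hippocampus, coloured by comparison. All intervals cross 0, and they are narrowest for Sparc and Sparcl1 and widest for Chrdl1 and Thbs4; Thbs1 and Thbs2 are left out because most of their libraries were at or near 0.

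Sparcl1 (ENSMUSG00000029309, chromosome 5, 104079111 to 104113733, GRCm38), which encodes hevin, was the most abundant gene of the set in every library. In contralateral astrocytes its level was 3172, 3300, 3697, 3788 and 5557 TPM in PTE+ mice, ran from 3460 through a median of 4127 to 4924 TPM in PTE- mice, and was 3523, 3753, 3833, 4017 and 5939 TPM in sham mice. The 3 groups overlapped throughout, and the highest sham library, mouse a8_16, stood apart from the other 4. Ipsilaterally the levels were 3584, 3728, 3728 and 6366 TPM in PTE+, 2110 to 5913 TPM (median 4170) in PTE-, and 2995, 3480, 4372, 5131 and 5671 TPM in sham mice. The lowest of all 37 values, 2110 TPM, came from the ipsilateral library of a8_11. Over the 6 comparisons of groups the log2 fold change of Sparcl1 stayed between -0.25 and 0.07, with standard errors of 0.16 to 0.26 and p between 0.20 and 0.88. The 95% intervals reached from -0.81 to 0.47, so changes beyond 0.57-fold and 1.38-fold lay outside all of them.

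Sparc (ENSMUSG00000018593, chromosome 11, 55394500 to 55423183), whose secreted product opposes hevin, showed the same steadiness. Its contralateral level was 861, 975, 1162, 1287 and 1356 TPM in PTE+ mice, 810 to 1413 TPM (median 992) in PTE- mice and 782, 1012, 1026, 1262 and 1426 TPM in sham mice. No group lay apart. Ipsilaterally it was 831, 1058, 1495 and 1503 TPM in PTE+, 999 to 1604 TPM (median 1162) in PTE-, and 823, 880, 1210, 1223 and 1817 TPM in sham mice. The log2 fold changes between groups ranged from -0.26 to 0.06 (SE 0.20 to 0.31), with 95% intervals that reached from -0.86 to 0.62. Among mice with both hemispheres, Sparc was higher ipsilaterally in 12 of 17, including 6 of 8 PTE- and 4 of 5 sham mice, and the sham difference of 0.16 on the log2(CPM + 1) scale had an exact sign permutation p of 0.125. CPM denotes counts scaled to library size with edgeR's normalization factors.

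Both SPARC family members also varied little between animals of 1 group. The SD of log2(CPM + 1) within contralateral groups was 0.29 for Sparcl1 and 0.38 for Sparc, and 97.5% and 94.8% of the 15503 genes compared had a larger one. The median gene had 1.25. Ipsilaterally the SD was 0.43 for Sparcl1 and 0.47 for Sparc, beside 1.43 for the median gene. High expression goes with low sampling noise, and the part of expression level in this order was not tested.

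The 3 glypicans, heparan sulfate proteoglycans held at the membrane by a lipid anchor from which they can be shed, differed from each other in level and steadiness. Gpc5 (ENSMUSG00000022112, chromosome 14, 115092215 to 116525179) had 112, 168, 186, 200 and 229 TPM in contralateral PTE+ astrocytes, 140 to 333 TPM (median 230) in PTE- and 199, 211, 228, 243 and 286 TPM in sham. The PTE+ values overlapped both other groups, with 4 of 5 below or at 200 TPM. The edgeR log2 fold change was -0.39 (SE 0.22, p = 0.095, adjusted p = 1.0) against PTE- and -0.37 (SE 0.25, p = 0.16) against sham, while PTE- and sham differed by 0.02 (SE 0.22, p = 0.94). The difference in mean log2(CPM + 1) for PTE+ against PTE- was -0.42 (exact permutation p = 0.080), and -0.25 without PTE+ a8_10 (exact permutation p = 0.26). In the other direction, without PTE+ a8_17 the log2 fold change was -0.62 (p = 0.0099, edgeR) against PTE- and -0.61 (p = 0.021) against sham, the adjusted p remaining 1.0 in both. In bulk RNA of isolated cells, fewer cells that express a gene and less RNA per cell cannot be told apart.

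In the ipsilateral hippocampus Gpc5 had 181, 204, 207 and 330 TPM in PTE+, 0 to 311 TPM (median 144) in PTE- and 143, 208, 221, 306 and 472 TPM in sham. The 0 belonged to a8_11, the library with the fewest detected genes, and the next lowest PTE- value was 60.2 TPM in a8_14. The SD within groups on log2(CPM + 1) was thus 0.38 contralaterally but 2.09 ipsilaterally. Ipsilateral fold changes ranged from -0.90 for PTE- against sham (SE 0.85, p = 0.31) to 0.45 for PTE+ against PTE- (SE 0.92, p = 0.63). Exons of Gpc5 overlap those of Gm20713 on the opposite strand, and since the library kit does not mark strand, reads of the pair cannot be told apart there.

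Gpc4 (ENSMUSG00000031119, chromosome X, 52053021 to 52165252), one of the glypicans known to recruit AMPA receptors, ranged over 3.23 to 54.4 TPM contralaterally, a 16.9-fold spread. PTE+ astrocytes had 13.99, 15.04, 18.04, 24.1 and 47.0 TPM, PTE- 3.23 to 54.4 TPM (median 17.5) and sham 7.87, 21.5, 21.97, 24.9 and 35.0 TPM. The PTE- group enclosed all values of the other groups. Ipsilaterally PTE+ astrocytes had 16.4, 18.8, 24.7 and 29.8 TPM, PTE- 8.38 to 59.3 TPM (median 29.2) and sham 0, 14.7, 17.3, 18.1 and 23.8 TPM, where the 0 came from a9_9. In sham mice Gpc4 was lower ipsilaterally in 5 of 5 animals, by a mean of 1.02 on the log2(CPM + 1) scale, with an exact sign permutation p of 0.0625, the smallest that 5 pairs allow. This mean rested on a9_9, whose ipsilateral library had 0 counts of Gpc4 and 10886 detected genes, and without that mouse the mean difference was -0.33 (exact sign permutation p = 0.125). The ipsilateral minus contralateral difference of injured mice was 1.55 above that of sham mice (exact permutation p = 0.11), and ipsilateral PTE- mice were 1.41 above sham mice on that scale (exact permutation p = 0.10, and 0.043 to 0.40 on leaving out any 1 library). Without a9_9 these differences were 0.85 (exact permutation p = 0.35) and 0.39 (exact permutation p = 0.40). The edgeR log2 fold change of the latter comparison was 0.94 (SE 0.93, p = 0.32).

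Gpc6 (ENSMUSG00000058571, chromosome 14, 116925315 to 117976544), the other glypican with this known activity, was close to Gpc4 in level. Contralateral values were 13.8, 27.5, 29.4, 34.7 and 56.6 TPM in PTE+, 0 to 81.5 TPM (median 26.6) in PTE- and 13.5, 26.2, 29.1, 33.3 and 46.9 TPM in sham. Ipsilateral values were 0, 29.6, 36.4 and 54.3 TPM in PTE+, 0 to 49.4 TPM (median 22.3) in PTE- and 18.8, 19.2, 34.0, 36.8 and 44.6 TPM in sham. The groups overlapped on both sides, and the 3 values of 0 fell in contralateral a8_14, ipsilateral a8_11 and ipsilateral a9_19. Group differences were small beside their errors, with log2 fold changes from -0.35 to 0.08, standard errors of 0.77 to 1.35 and p of at least 0.76 (edgeR).

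Chrdl1 (ENSMUSG00000031283, chromosome X, 143285674 to 143394262) encodes a secreted antagonist of bone morphogenetic proteins. Contralateral sham astrocytes had 26.3, 28.1, 29.0, 42.3 and 43.9 CPM, and PTE+ astrocytes 8.34, 14.9, 18.6, 24.2 and 26.003 CPM, so that the lowest sham library lay just above the highest PTE+ library. PTE- astrocytes ran from 0 to 48.9 CPM, with a8_14 and a9_20 at 0 counts and a8_9 at 4 counts. The mean log2(CPM + 1) of PTE+ mice was 0.91 below that of sham mice with an exact permutation p of 0.0079, the smallest that 5 against 5 libraries allow. Of all 14642 genes, 0.615% had groups that did not overlap in this comparison and 3.65% an exact p under 0.05. PTE- mice were 1.88 below sham (exact permutation p = 0.038, background 3.29%), and PTE+ and PTE- did not separate (difference 0.97, exact permutation p = 0.44, where 4.33% of genes had a p under 0.05).

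The edgeR fit did not count either Chrdl1 difference, with log2 fold changes of -0.88 (SE 1.32, p = 0.51) for PTE+ and -0.99 (SE 1.10, p = 0.38) for PTE- against sham. On the TPM scale the contralateral groups overlapped, since PTE+ values were 3.34, 9.17, 12.5, 15.3 and 17.9 TPM and sham values 13.6, 16.9, 18.6, 22.6 and 24.1 TPM, with an exact permutation p of 0.048 on log2(TPM + 1). For PTE- against sham the exact p rose to 0.093 on that scale to 0.086 without the 2 contralateral libraries in which fewer than 12000 genes had a count, and to 0.092 to 0.16 on leaving out a8_14, a8_9, a9_20 or any 1 sham library. Ipsilaterally the differences had the same sign, at -0.78 for PTE+ against sham and -1.40 for PTE- against sham on log2(CPM + 1), but the groups overlapped. There, sham astrocytes had 1.97, 8.03, 13.6, 14.9 and 41.2 TPM, PTE+ 0.68, 13.6, 15.6 and 18.04 TPM and PTE- 0 to 30.6 TPM (median 9.02), with exact permutation p of 0.28 to 0.73 over the 3 comparisons. Without PTE+ a8_10 the ipsilateral PTE+ against sham difference was 0.23 (exact permutation p = 0.79). The share of all genes with an ipsilateral exact p under 0.05 was 2.17% for PTE+ against PTE-, 3.37% for PTE+ against sham and 2.91% for PTE- against sham. Whether the contralateral and ipsilateral differences were themselves different was not shown for Chrdl1 (difference of hemispheres, injured against sham, 0.19, exact permutation p = 0.88).

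Thrombospondins are large secreted glycoproteins of the matrix. Thbs4 (ENSMUSG00000021702, chromosome 13, 92751590 to 92794818) was the only one with a median above 1 TPM. In contralateral PTE+ mice its level was narrow, at 9.55, 9.70, 10.4, 12.5 and 14.01 TPM, whereas PTE- mice spread from 0 to 51.8 TPM (median 1.76) and sham mice had 0.19, 1.84, 2.03, 9.67 and 15.3 TPM. All 5 PTE+ values lay inside the range of both other groups. Ipsilaterally PTE+ mice had 10.53, 10.7, 11.01 and 21.9 TPM, PTE- mice 0 to 97.2 TPM (median 17.9) and sham mice 0, 4.19, 9.10, 10.9 and 14.01 TPM. The exact permutation p was 0.079 for contralateral PTE+ against sham (difference 1.68 in mean log2(CPM + 1)) and 0.14 against PTE- (difference 1.89). The first became 1.08 without sham a9_9 (exact permutation p = 0.11) and 2.20 without sham a9_10 (exact permutation p = 0.0079). In edgeR, which compares mean counts, the fold change of PTE+ against PTE- was near 0, at -0.01 on the log2 scale (SE 1.495, p = 0.99), and that of PTE+ against sham 1.02 (SE 1.74, p = 0.56). Over the 6 comparisons the edgeR log2 fold change lay between -0.93 and 1.53 (SE 1.42 to 1.74, p of at least 0.30). Thbs4 was more dispersed than nearly all genes: its SD within contralateral groups was 2.14 on log2(CPM + 1), and 2.81% of genes had a larger one.

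Thbs2 (ENSMUSG00000023885, chromosome 17, 14665500 to 14694235) had more than 3 counts in 19 of 37 libraries. Contralateral counts were 0, 0, 11, 375 and 475 in PTE+ and 0, 0, 29, 265 and 428 in sham mice, and 7 of 10 PTE- libraries had 0 counts, the others 42, 227 and 2868. Ipsilateral counts were 0, 0, 14 and 232 in PTE+ and 0, 97, 133, 342 and 509 in sham mice, and the PTE- libraries ranged from 0 to 3958. The highest values were found in single mice of the PTE- group, a9_14 contralaterally and a9_16 and a9_12 ipsilaterally. The log2 fold changes ran from -3.96 to 1.88 with standard errors of 2.19 to 2.72 (edgeR, p of at least 0.16), which leaves changes of many fold in either direction undetectable at this spread.

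Thbs1 (ENSMUSG00000040152, chromosome 2, 118111876 to 118127133) encodes thrombospondin-1, a protein also made by platelets, endothelium and other cells of the vessel wall. In contralateral astrocytes it was found chiefly in PTE+ mice, with 616 counts in a8_10, 444 in a8_17, 170 in a9_17, 60 in a9_18 and 0 in a9_19. Among 10 PTE- libraries 8 had 0 counts, a9_12 had 41 and a9_13 had 5. All 5 sham libraries had 0 counts. Of the 5 PTE+ libraries 4 were thus above every PTE- and sham library, a9_18 only just (1.06 CPM against 0.99 CPM in PTE- a9_12), and the fifth was at 0 like most of them. On the TPM scale the highest contralateral value was 4.08, in a8_10, where Chrdl1 had 3.34 TPM and Sparc 1356 TPM.

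Contralateral Thbs1 was higher in PTE+ than in PTE- mice by a log2 fold change of 5.86 (SE 1.97, p = 0.0081, adjusted p = 1.0, edgeR), or 58.1-fold with a 95% interval of 3.31 to 1020. The difference of mean log2(CPM + 1) was 2.14 (exact permutation p = 0.0040, and 0.0010 to 0.012 on leaving out any 1 library), whereas without PTE- a9_12 Thbs1 did not pass the low-count filter of edgeR. Against sham mice, 3 counts per library were taken as the limit that 5 libraries at 0 allow. The mean CPM of PTE+ mice was at least 92.4-fold above that limit, and at least 59.3-fold without a8_10. These bounds cover counting error in the sham libraries alone, not the spread between mice (PTE+ SD 6.98 CPM) or genes that a library missed. The edgeR p with all libraries was 0.0025 (adjusted p = 1.0). The exact permutation p of PTE+ against sham was 0.048, and 0.087 on leaving out any 1 of the sham libraries. The PTE- mean exceeded that limit only through a9_12, so no bound on the fold against sham is given although the edgeR p was 0.033 (0.051 to 0.055 on leaving out any 1 sham library, exact permutation p = 0.76). Mouse names begin with a8 or a9, a prefix whose meaning the labels do not give. Within a8 the PTE+ against PTE- difference was 3.87 (2 against 4 libraries, exact permutation p = 0.067, the smallest possible) and within a9 0.98 (3 against 6, exact permutation p = 0.095), and with the prefix as a covariate the edgeR p was 0.014.

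**Figure D3:**
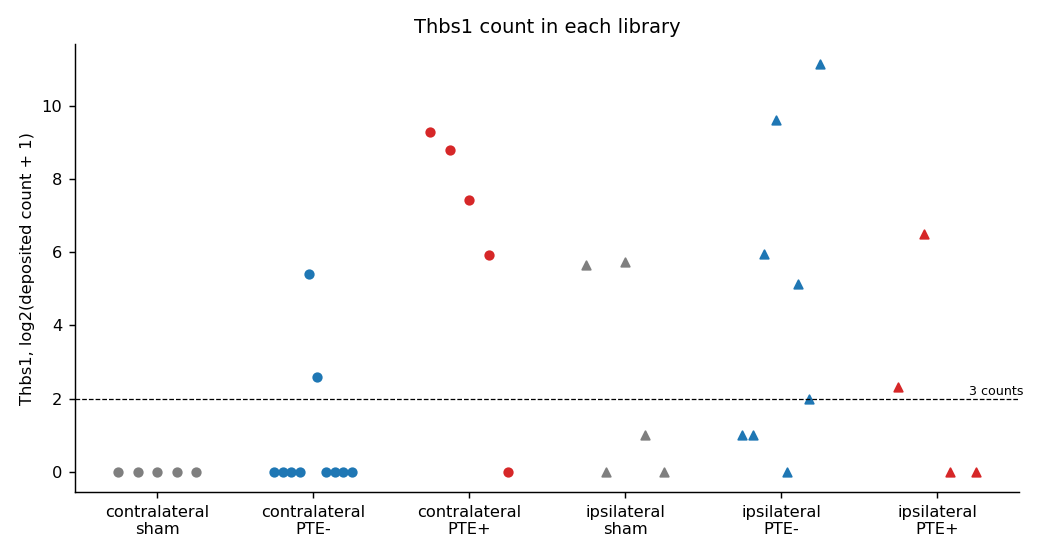
Thbs1 count in each library as log2(count + 1) in 6 groups, with a dashed line at 3 counts. In the contralateral hippocampus 4 of 5 PTE+ libraries lie above all PTE- and sham libraries, while ipsilaterally the highest libraries are PTE-.

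Ipsilateral Thbs1 did not repeat the contralateral order. PTE+ libraries had 0, 0, 4 and 89 counts, sham libraries 0, 0, 1, 49 and 52, and PTE- libraries 0, 1, 1, 3, 34, 61, 772 and 2234. The PTE- libraries with 2234 (a9_16) and 772 counts (a9_12) held most of the reads of the group, a9_16 alone 71.9%. Log2 fold changes were -4.20 (SE 2.80, p = 0.15) for PTE+ against PTE-, 4.01 (SE 2.51, p = 0.13) for PTE- against sham and -0.19 (SE 2.44, p = 0.94) for PTE+ against sham in edgeR. Without the PTE+ library of a9_17 the first was -8.17 (p = 0.047, adjusted p = 1.0). Exons of Thbs1 overlap those of Gm29233 on the opposite strand, and their reads cannot be told apart without strand.

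Markers of blood vessels were high along with Thbs1 in some libraries and without it in others. The 10 endothelial markers summed to 6074, 2206, 2949, 926 and 941 TPM in the contralateral PTE+ libraries named above, in the same order, to 464 to 2196 TPM (median 1289) in PTE- and to 688 to 1972 TPM (median 930) in sham libraries. The contralateral library with the most Thbs1 thus had the highest endothelial sum. By that sum, 3 of 5 PTE+ libraries exceeded every contralateral PTE- library. Of these, a8_17 did so only just (2206 against 2196 TPM in a8_9, which had 0 counts of Thbs1). In the same order, the 10 mural and fibroblast markers summed to 1059, 272, 632, 363 and 313 TPM in contralateral PTE+ libraries. They summed to 138 to 579 TPM (median 392) in PTE- and to 286 to 457 TPM (median 400) in sham libraries, so a8_10 was highest there too. Ipsilaterally the endothelial sum was 2411 TPM in PTE+ a8_10 with 4 counts of Thbs1, and 2199 TPM in PTE- a8_11 with 1 count. At an unadjusted p under 0.05 (edgeR), 2 of the 10 endothelial markers were higher contralaterally in PTE+ than in PTE-. These were Esam (log2 fold change 1.02, p = 0.014) and Ly6c1 (1.04, p = 0.041), beside 2.21% of all genes in either direction. Against sham 1 of 10 was higher, Cldn5 (1.42, p = 0.023), beside 1.23% of all genes. The median log2 fold change of the 10 was 0.90 against PTE- and 0.97 against sham. None of the 10 had a median of 0 in any group. In the ipsilateral library of a9_16, with the most Thbs1 of all, the endothelial sum was 450 TPM but the 10 mural and fibroblast markers summed to 1008 TPM, the highest of the ipsilateral libraries, and in a9_12 the ependymal and choroid plexus markers reached 10857 TPM, the highest of all 37. Ipsilateral a8_11 had a sum of 9941 TPM for the latter markers with 1 count of Thbs1. The part of these cells in the Thbs1 result was not tested.

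In the comparison of hemispheres, Thbs1 was the one member counted. Among PTE+ mice it was lower ipsilaterally in 3 of 4 animals and equal in the other, and among PTE- mice it was higher ipsilaterally in 7 of 8. In 3 of these 7 the ipsilateral library had only 1, 1 and 3 counts, so that 4 of 8 were higher beyond the limit of 3 counts. The PTE- log2 fold change was 5.73 (SE 2.26, p = 0.017, adjusted p = 0.70, edgeR with the libraries of a mouse unpaired), and without a9_16 it was 4.01 (p = 0.082). The exact sign permutation p was 0.070, with 0.14 without a9_16 and 0.016 without a9_13. In sham mice the mean ipsilateral CPM was at least 6.52-fold above the same limit of 3 counts, and at least 3.71-fold without a8_15, for counting error alone. The unpaired edgeR p with all 5 mice was 0.017. However, only 3 of 5 mice had any ipsilateral count, 2 of them more than 3, and the exact sign permutation p was 0.25. The ipsilateral minus contralateral difference was lower in PTE+ than in PTE- mice by a log2 value of -9.46 (SE 3.96, p = 0.023, adjusted p = 1.0, edgeR), and by -2.88 on log2(CPM + 1) with an exact permutation p of 0.024. With the 2 libraries of each mouse paired as a replicate block the log2 value was -10.92 (p = 0.014). Without PTE+ mouse a8_10 the unpaired edgeR p was 0.088 and the exact permutation p 0.097. For injured against sham mice the edgeR p was 0.038, but the paired fit gave 0.077 and the exact permutation test 0.94, with a difference of -0.08.

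**Figure D4:**
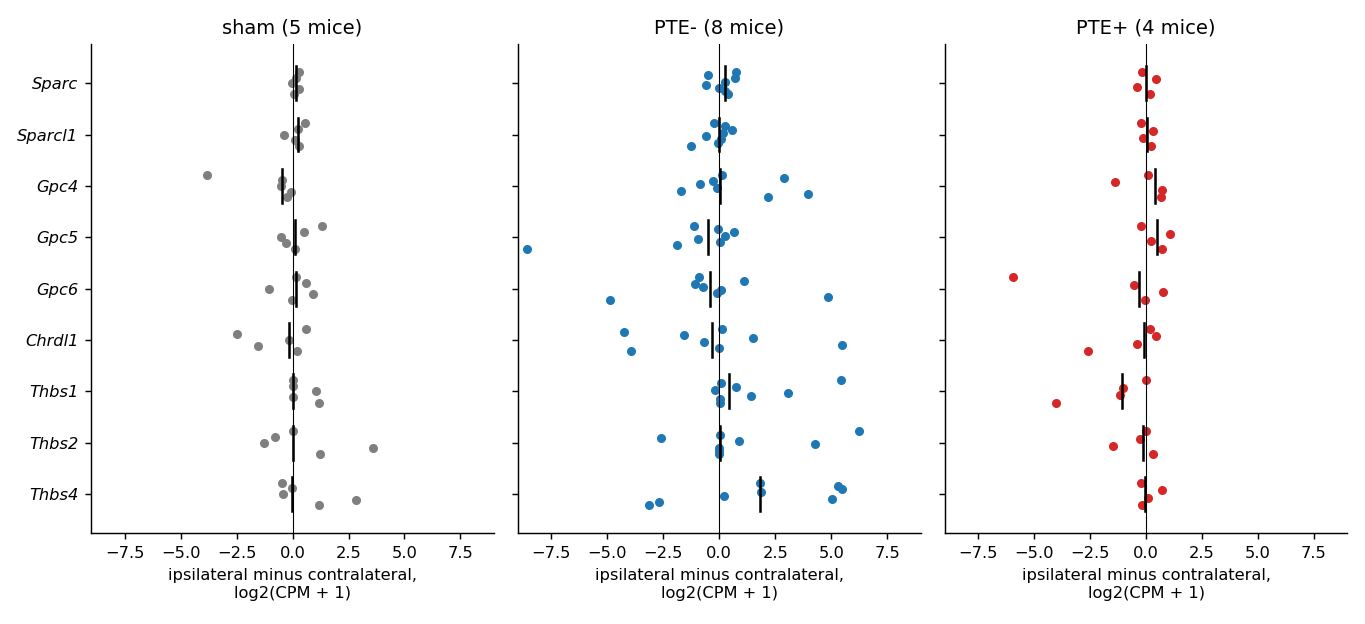
Ipsilateral minus contralateral log2(CPM + 1) of each gene in each of 5 sham, 8 PTE- and 4 PTE+ mice, 1 point a mouse, with a black bar at the median. Sparc points lie between -0.58 and 0.75, Sparcl1 points between -1.27 (PTE- a8_11) and 0.56, Gpc4 lies below 0 in all 5 sham mice, most of all in a9_9 (-3.82), and Thbs1 lies at or below 0 in all 4 PTE+ mice and above 0 in 7 of 8 PTE- mice, 4 of them with more than 3 ipsilateral counts.

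The 8 other genes showed no change between hemispheres that edgeR counted. Thbs4 was higher ipsilaterally in 6 of 8 PTE- mice, with a median difference of 1.84 on log2(CPM + 1) and a range from -3.14 to 5.48 (exact sign permutation p = 0.21 for the mean of 1.74). Gpc5 was higher ipsilaterally in 3 of 4 PTE+ and lower in 5 of 8 PTE- mice. Gpc6 and Chrdl1 were each higher in 7 of 17 mice. With 4 PTE+ and 5 sham pairs, the sign test cannot give a p below 0.125 and 0.0625.

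Missing values were not spread evenly over the libraries. Among the 7 genes other than Thbs1 and Thbs2, 12 of 63 gene and library pairs were at 3 counts or fewer in the 9 libraries with under 13000 detected genes, and 4 of 196 in the 28 others. Contralaterally such values occurred in 6 of 10 PTE- libraries and in no PTE+ or sham library, and these 6 libraries had 11756 to 13911 genes with a count, although a sham library with 12122 missed none of the 7. A count of 0 allows up to 3 counts, or about 0.07 CPM in the contralateral sham libraries, for counting error alone. A library with fewer detected genes misses more genes by definition, so the direction of the split at 13000 genes was in part built in. The 7 genes were not compared with others in this. The part of detected gene number in the Chrdl1 and Thbs4 differences was not tested.

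**Figure D5:**
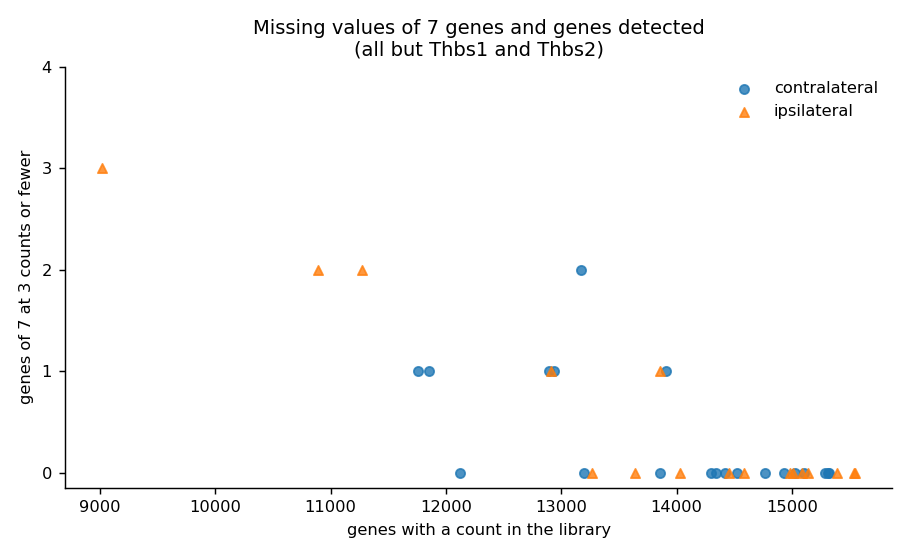
Number of the 7 genes other than Thbs1 and Thbs2 at 3 counts or fewer in each library against the number of genes with a count in that library. The ipsilateral library with 9020 genes misses 3 of 7, and the 28 libraries with at least 13000 genes hold 4 of the 16 missing values.

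Relatives, receptors and other regulators of the same pathways were compared in the same fits. Of 13 family relatives, Thbs3 was the most abundant with a median of 61.3 TPM, above Thbs4, and Comp and Chrdl2 had medians of 0. None of the 11 or 12 relatives tested in a comparison reached an unadjusted p under 0.05 in any of the 11. Of 29 receptors and partners, 28 or 29 were tested, and most reached above 3 counts in most libraries, led by Cd47, a thrombospondin receptor, with a median of 200 TPM. In contralateral astrocytes 1 of 28 was higher in PTE+ than in PTE- at an unadjusted p under 0.05. The share of all 14642 genes at that threshold, in either direction, was 2.21%. The receptor counted was Nptxr, which binds neuronal pentraxins, with a log2 fold change of 2.33 (SE 1.01, p = 0.031, edgeR). Its level was 1.42 to 20.7 TPM (median 6.38) in PTE+ and 0.04 to 3.82 TPM (median 1.195) in PTE-, and the ranges overlapped. The 10 neuronal markers had a median log2 fold change of 1.42 in that comparison, and 1 of them, Snap25, was counted (1.36, p = 0.040). Their sum was 97.5 to 1252 TPM (median 279) in PTE+ and 93.6 to 237 TPM (median 151) in PTE- libraries, and their part in the Nptxr difference was not tested.

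Another 15 astrocyte regulators of synapses were compared at an unadjusted p under 0.05, which 2.21% of all genes reached in contralateral PTE+ against PTE-. Of 14 tested there, 1 was lower in PTE+ than in PTE- astrocytes. This was Cadm1, an adhesion molecule at astrocyte and synapse contacts, at 378 to 507 TPM (median 465) in PTE+ and 272 to 905 TPM (median 536) in PTE-, a log2 fold change of -0.48 (SE 0.18, p = 0.016, adjusted p = 1.0, edgeR). The ranges overlapped. Its ipsilateral minus contralateral difference was 0.77 higher in PTE+ than in PTE- mice (SE 0.38, p = 0.0496, edgeR), where 2.94% of all genes reached that threshold. Cd36, a thrombospondin receptor, was counted as lower ipsilaterally in PTE+ mice (2.93% of all genes). Its hemisphere difference was counted as lower in PTE+ than in PTE- mice (2.94%). Tnf was counted as lower ipsilaterally in PTE- mice (4.56%), and its hemisphere difference as lower in injured than in sham mice (2.4%). Cd36 and Tnf had more than 3 counts in only 5 and 4 of 37 libraries. None of the relatives, receptors or regulators had an adjusted p under 0.05.

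For the 7 genes with more than 3 counts in at least 15 contralateral libraries, the genes of most similar pattern over these 20 libraries were sought among 11858 genes. Spearman's rho is given as a description, since libraries share depth and numbers of detected genes. Sparcl1 ran closest to Cryab (rho 0.88), 3110082J24Rik (0.83) and Chmp1b (0.81), and Sparc was close to Cyb5r3 and B2m (each 0.82). Among glypicans, Gpc4 ran closest to Dusp18 (0.85), Xpr1 (0.76) and Rasgrp1 (0.72), Gpc5 to Mettl5 (0.89), Mtg1 (0.85) and Tmem59 (0.82), and Gpc6 to Itpkb (0.93), Tmem164 (0.83) and Rasa4 (0.82). Chrdl1 ran closest to Larp4 (0.88), Sowahc (0.86) and Tle2 (0.83), and Thbs4 to Ell (0.87), Rapgefl1 (0.80) and March8 (0.79). No member of the set was among the 3 closest genes of another.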

How the data were processed

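Astrocyte RNA was amplified with the SMART-Seq V4 kit, which keeps no strand information, and sequenced as paired ends. The authors trimmed reads with Trim Galore 0.6.4 and mapped them to mm10 with RSEM 1.2.28 and Bowtie2 2.4.1, and the deposited tables hold the resulting expected counts and TPM (length-scaled transcript abundance) per gene, without pooling. Expected counts were rounded to whole numbers. Gene names and positions were taken from GENCODE M21 (GRCm38), which matched 21933 of 21975 gene identifiers. Each hemisphere was fitted with edgeR 4.0.16 (TMM, filterByExpr, quasi-likelihood F test; 14642 contralateral and 14903 ipsilateral genes), the mice with both hemispheres in 1 fit of 6 groups (15731 genes), and p-values were adjusted over all genes tested. All 9 genes passed the filter in the 3 fits. Fold changes against a group entirely at 0 were replaced by a bound at 3 counts per library, which covers counting error alone and not the spread between mice.

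Single genes were also compared by exact two-sided permutation tests on log2(CPM + 1), 9 genes in 11 comparisons, which are not adjusted. Contralaterally 1 of 9 genes had a p under 0.05 for PTE+ against PTE- (Thbs1), beside 4.33% of all genes. The number was 1 for PTE- against sham (Chrdl1, 3.29%) and 2 for PTE+ against sham (Chrdl1 and Thbs1, 3.65%). It was 1 for the hemisphere difference of PTE+ against PTE- (Thbs1) and 0 in the other comparisons. For tests between hemispheres the share of all genes was not computed. Libraries of 1 mouse come from the same animal and therefore pair (median correlation of their deviations from the group means 0.080 over 17 mice). Alternatives were DESeq2 1.42.0, limma 3.58.1 on log2(TPM + 1), RLE scaling, no filter, the 2 compared groups alone, the name prefix, the replicate block, a pseudocount of 0.1, and leaving out each mouse. Leaving out libraries with a count in fewer than 12000 genes, and exact tests on TPM, were added after seeing the data. The named genes are all 9 members, list genes with an adjusted p under 0.05, or an unadjusted one where at most 3 of a list reach it in a comparison, and the 3 genes of highest rho, of which 1 is not reported here. The members and lists were chosen with earlier results of these data known. Scripts were tested on simulated data (R 4.3.3, Python 3.11.15, scipy 1.17.1). The simulated libraries had less spread than the real ones, so that test checks the code and not the power at this spread.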

Additional observations from a re-analysis of the deposited data

Results flagged for a closer look

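Of 53 groups of 4 to 10 libraries examined gene by gene, 13 held a library far from the others on log2(CPM + 1), where chance gives about 1 in 20. Groups with most libraries at 0 were included, such as contralateral PTE- for Thbs1 (8 of 10), so 13 of 53 cannot be read against that rate. Values of the libraries flagged are in CPM, each beside its nearest neighbour. In the SPARC family and glypicans they were Sparcl1 in contralateral sham a8_16 (11030, next 6530), Gpc4 in sham a9_9 contralaterally (13.1, next 34.3) and ipsilaterally (0, next 23.5), and Gpc5 in ipsilateral PTE+ a9_18 (497, next 278) and ipsilateral PTE- a8_11 (0, next 98.9). Gpc6 was at 0 in contralateral PTE- a8_14 (next 28.5), ipsilateral PTE+ a9_19 (next 51.8) and ipsilateral PTE- a8_11 (next 28.2). Chrdl1 was low in ipsilateral PTE+ a8_10 (0.54, next 19.4). Thbs1 was high in contralateral PTE- a9_12 (0.99, next 0.14) and ipsilateral PTE+ a9_17 (1.54, next 0.071), and Thbs2 in contralateral PTE- a9_14 (55.3, next 6.32) and ipsilateral PTE+ a9_17 (4.02, next 0.25).

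For Thbs1 the difference between hemispheres was flagged as differing between groups of mice at an unadjusted p under 0.05, and not on the adjusted p. For PTE+ against PTE- it was -9.46 in edgeR (p = 0.023, and 0.088 without a8_10) and -2.88 on log2(CPM + 1) (exact permutation p = 0.024). For injured against sham mice it was -6.43 in edgeR (p = 0.038), a fitted value that depends on how contralateral sham libraries at 0 are handled. On log2(CPM + 1) that difference was -0.08 (exact permutation p = 0.94), and the edgeR p rose to at most 0.082 on leaving out 1 mouse, above 0.05 in 7 of 17 fits.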

How the results depend on the processing

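No setting brought a member to an adjusted p under 0.05. None of the Thbs1 fold changes counted in 7 comparisons changed sign, nor did the contralateral Chrdl1 exact differences from sham. Other differences changed sign on leaving out 1 mouse, as ipsilateral Chrdl1 in PTE+ against sham did without a8_10. Contralateral Sparc in PTE+ against PTE- went from -0.08 to 0.02 without a9_19, and Gpc4 in PTE+ against sham from 0.08 to -0.24 without a9_9. Over all genes, DESeq2 called 19 to 253 genes per comparison at that threshold, edgeR 0 or 1 and limma 0. The count of members with an unadjusted p under 0.05, 1 in each of 7 comparisons, fell to 0 for contralateral PTE- against sham with DESeq2, limma, the prefix covariate and the 2 compared groups alone; for PTE+ against sham with the 2 groups alone; for the PTE- and sham hemispheres with limma; and for the hemisphere difference of injured against sham mice with DESeq2, limma, the replicate block and without the libraries of under 12000 genes. In the fits of 2 groups against sham Thbs1 did not pass the low-count filter and was not tested. The replicate block changed no other count. For the other losses the cause was not tested.

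Leaving out 1 mouse gave 0 to 2 members for contralateral PTE+ against PTE-, 1 to 2 for contralateral PTE+ against sham, and 0 to 1 for contralateral PTE- against sham, ipsilateral PTE+ against PTE-, the PTE- hemispheres and both differences between hemispheres. The second member was Gpc5, without a8_17, and without a9_12 Thbs1 did not pass the filter in contralateral PTE+ against PTE-. The Chrdl1 exact p for PTE- against sham ranged from 0.028 to 0.16 and for PTE+ against sham from 0.0079 to 0.040. Libraries with few detected genes limit what a value of 0 can show.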
